A study of Mus musculus with 6 samples.

Results

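Neutrophils were followed in 6 libraries of single-cell RNA sequencing from mouse blood, 3 of control mice (Con) and 3 of mice with a model of type 2 diabetes (T2D). A cell was taken as a neutrophil from its unique molecular identifiers (UMIs, each of which stands for 1 counted mRNA molecule). Its UMIs of Csf3r, Cxcr2, Il1r2, Mmp9 and Retnlg had to sum to at least 3, it had to hold no UMI of the monocyte gene Csf1r, the eosinophil genes Ccr3 and Alox15 or the T cell genes Cd3d, Cd3e and Cd3g, and at most 1 UMI of the B cell genes Cd79a, Cd79b and Ms4a1. The cells were thus chosen by measured values, those of these genes. The rule found 705 neutrophils among 49025 cells that passed a floor of 200 genes and a ceiling of 20% mitochondrial UMIs. Con mice received saline into the peritoneum and T2D mice received streptozotocin (STZ), a toxin of insulin-producing beta cells, by the same route. The series title adds a high-fat diet (HFD) to the T2D model, and neither the strain nor the diet of the controls is given in the sources used here. All mice were males aged 12 to 13 weeks. The blood cells were the mononuclear layer of a Ficoll gradient after lysis of red cells. Most neutrophils sediment below that layer, so the cells described here are those that stayed with the mononuclear cells. Whether each library is a single mouse or pooled blood is not stated, so the p-values below reflect the spread between libraries, part of which may be technical.

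Neutrophils are short-lived phagocytes that mature in the bone marrow, where their granule proteins are made in a fixed order, and enter blood with most of that synthesis over. Blood neutrophils keep receptors for chemoattractants and microbial products ready, and signals from these receptors run through NF-kB, a family of transcription factors held in the cytoplasm by IkB proteins. Active NF-kB induces its own inhibitors, among them Nfkbia and Tnfaip3, so their transcripts are a common readout of recent signalling. Interferons act on a separate set of genes with antiviral roles, which neutrophils express at a low level at rest and raise strongly when exposed.

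The rule found 131, 167 and 69 neutrophils in Con 1, 2 and 3 and 67, 154 and 117 in T2D 1, 2 and 3. They made up 1.73%, 2.28% and 0.850% of the kept cells in Con and 0.745%, 1.75% and 1.43% in T2D. The groups overlapped, and the mean share of 1.62% ± 0.72 (SD, n = 3) in Con and 1.31% ± 0.51 in T2D did not differ beyond their spread (exact permutation, two-sided, p = 0.6, where 3 libraries against 3 allow no p under 0.1). Within a single library the exact (Clopper-Pearson) 95% interval of the share, which covers counting error only, ran from 1.45% to 2.05% in Con 1 and from 0.578% to 0.945% in T2D 1. Of 2052 cells that reached a marker sum of 3, 735 held Csf1r, 419 held Ccr3 or Alox15, 365 held Cd3 UMIs and 226 held 2 or more B cell UMIs, and a cell could fail on several. Cells at the threshold were few: 3, 5 and 6 members in Con and 1, 4 and 2 in T2D had a sum of exactly 3, and 7, 2 and 2 cells in Con and 3, 12 and 3 in T2D met the rest of the rule with a sum of 2.

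The label was checked against markers that the rule did not use. Summed over S100a8, S100a9, G0s2, Trem1, Clec4d, Ly6g, Slpi, Il1b, Cd177, Hdc and Mxd1, these ran from 73649 to 101208 CPM (UMIs scaled to 1 fixed total per library) across the 6 libraries. The monocyte, eosinophil, T cell and B cell lists hold genes that the rule itself limited, so their sums are partly fixed by it. The 8 monocyte markers, with Csf1r at 0 by the rule, summed to 426 to 713 CPM. The eosinophil list, with Ccr3 and Alox15 at 0 by the rule, summed to 12.4 to 38.9 CPM. The T cell list, with Cd3d, Cd3e and Cd3g at 0 by the rule, summed to 101 to 216 CPM. The B cell list, with Cd79a, Cd79b and Ms4a1 together capped at 1 UMI per cell, summed to 581 to 681 CPM in Con and 386 to 564 CPM in T2D. Platelet markers (5 of 5 above 0) summed to 529 to 863 CPM in Con and 783 to 1215 CPM in T2D. The red cell list reached 2449 CPM in Con 1 against 202 to 951 CPM in the other libraries, and the basophil list summed to 181, 51.9 and 425 CPM in Con and 12.4, 25.1 and 217 CPM in T2D. How far these other cell types bear on the results was not tested, except that platelet-positive and basophil-positive cells were left out in alternatives. The neutrophils had a median of 2152 UMIs and 934 genes per cell, against 3023 UMIs over all kept cells. Their median mitochondrial share was 0.233% to 0.453% of UMIs, where all kept cells had 4.31% to 5.40%. A doublet caller marked 16 of the 705 cells (2.27%). No barcode sequence belonged to a neutrophil in more than 1 library. Among all deposited barcodes, before the cell filter, 1127 of 48270 distinct sequences occurred in more than 1 library.

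The genes that chose the cells are described by level only. Csf3r, the receptor of the growth factor that drives neutrophil production, stood at 3972, 3689 and 2582 CPM in the Con libraries and 2944, 3371 and 3217 CPM in the T2D libraries, with overlapping groups. Here and below, values are given in the order of libraries 1, 2 and 3, as UMIs summed over the neutrophils of a library and scaled to CPM by TMM (a scaling that sets most genes equal between libraries). Cxcr2, the chemokine receptor that calls neutrophils out of the marrow, stood at 2649.5, 2511 and 2301 CPM in the Con libraries and 3489, 3975 and 3232 CPM in the T2D libraries. Retnlg, a secreted resistin-like protein, stood at 9089.6, 8485 and 13226 CPM in the Con libraries and 15355, 17441 and 11003 CPM in the T2D libraries. Il1r2, a decoy receptor for interleukin-1, and the gelatinase gene Mmp9 overlapped between groups.

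To ask which genes differed in neutrophils between T2D and Con, the 148244 to 385542 neutrophil UMIs of each library were tested as 1 value per gene with edgeR's quasi-likelihood test, and p-values were adjusted over all genes by the Benjamini-Hochberg method. Of 3476 genes with enough counts, 132 passed an adjusted p of 0.05 (3.80%), 58 of them higher in T2D (1.67%) and 74 lower (2.13%). Con and T2D libraries did not overlap for 18.6% of genes. In 21 lists of neutrophil genes, 310 of 463 genes could be tested, and 25 rose and 34 fell. Of these lists, that of NF-kB subunits and inhibitors held the most falls and that of interferon-stimulated genes the most rises. Leaving out single libraries changed the count to between 83 (without Con 2, or without T2D 1) and 149 (without Con 3), and 53 of the 132 genes passed in all 6 of these fits.

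Among 17 tested genes of the NF-kB list, 9 fell in T2D neutrophils and none rose, against 2.13% lower over all genes. The median log2 fold change of the list was −1.08 where that of all tested genes was 0.00. Nfkbia encodes IkB-alpha, the inhibitor that NF-kB resynthesises first. Its level was 10473, 10905 and 8427 CPM in the Con libraries and 3615, 2944 and 3094 CPM in the T2D libraries. All 3 T2D libraries lay far below the lowest Con library, with −1.63 ± 0.17 (log2 fold change ± SE, also below; adjusted p = 1.47e-08, edgeR). Tnfaip3 encodes A20, the ubiquitin-editing enzyme that shuts off signalling upstream of NF-kB. It stood at 1778, 2055 and 1340.1 CPM in the Con libraries and 441, 466 and 381 CPM in the T2D libraries, again without overlap (−2.01 ± 0.18, adjusted p = 3.75e-10, edgeR).

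**Figure D1:**
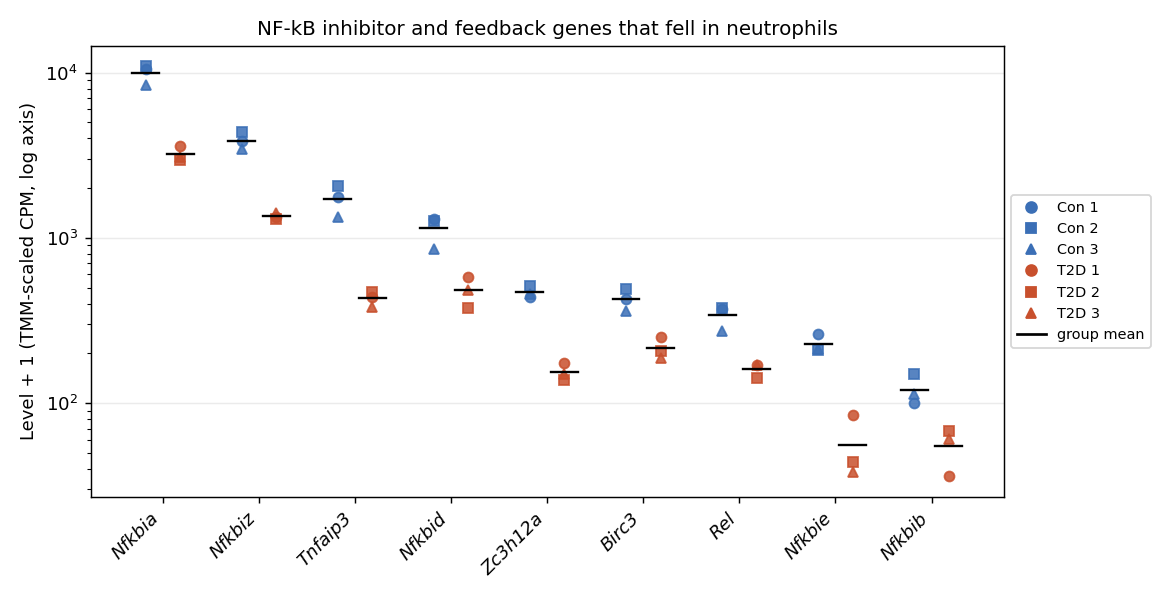
Levels of the 9 NF-kB genes that fell, in neutrophil UMIs summed per library (TMM-scaled CPM plus 1, log axis), with 1 point per library and a black line at each group mean. For each gene the 3 T2D points lie below the 3 Con points.

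Other IkB proteins fell as well. Nfkbie, which encodes IkB-epsilon, stood at 262, 208 and 210.5 CPM in the Con libraries and 83.9, 42.7 and 37.4 CPM in the T2D libraries, with T2D 1 the highest of the T2D libraries and still under every Con library (−2.18 ± 0.29, adjusted p = 1.78e-06, edgeR). Nfkbiz, an atypical nuclear IkB protein that steers NF-kB to secondary response genes, stood at 3836, 4375 and 3438 CPM in the Con libraries and 1336, 1302 and 1416 CPM in the T2D libraries (−1.52 ± 0.16, adjusted p = 1.83e-08). Its 3 T2D values lay within a narrow band under the Con values. Nfkbid, a further nuclear IkB protein, fell by 1.28 on the log2 scale, and Zc3h12a, an RNase that degrades inflammatory mRNAs, by 1.63. Birc3, a ubiquitin ligase of the TNF receptor pathway, fell by 1.03, and Rel, the c-Rel subunit, by 1.13. These calls, Nfkbib excepted, passed in all 6 fits without 1 library. Nfkbib, which encodes IkB-beta, stood at 98.6, 148 and 112 CPM in the Con libraries and 35.0, 67.1 and 59.8 CPM in the T2D libraries (−1.08 ± 0.31, adjusted p = 0.0356, edgeR) and did not pass without Con 2, Con 3, T2D 1, T2D 2 or T2D 3 (highest adjusted p = 0.329). The DNA-binding subunits Nfkb1 and Rela did not pass (adjusted p = 0.784 and 0.52, edgeR) and overlapped between groups. Nfkb2 had values of 75.8, 88.2 and 70.2 CPM in the Con libraries and 6.99, 45.7 and 37.4 CPM in the T2D libraries, apart between groups but short of the threshold (adjusted p = 0.088, edgeR).

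The windows from 250 bases before to 50 bases after the annotated start of these genes are shown because members that moved together can be compared by sequence. They are RefSeq sequences of the GRCm38.p6 build, on the strand of the gene, and capitals mark matches to a kappaB motif written as GGGNNTTTCC or GGGNNTTCCC, read on both strands. The Nfkbia window spans chr12:55492598-55492897 (minus strand), that of Tnfaip3 chr10:19015361-19015660 (minus strand) and that of Nfkbie chr17:45555450-45555749 (plus strand).
Nfkbia: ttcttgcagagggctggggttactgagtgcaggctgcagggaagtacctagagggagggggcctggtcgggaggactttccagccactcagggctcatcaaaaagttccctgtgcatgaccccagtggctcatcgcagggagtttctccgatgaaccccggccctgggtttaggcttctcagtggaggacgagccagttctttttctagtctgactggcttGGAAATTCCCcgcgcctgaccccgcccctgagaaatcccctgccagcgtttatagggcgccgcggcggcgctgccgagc
Tnfaip3: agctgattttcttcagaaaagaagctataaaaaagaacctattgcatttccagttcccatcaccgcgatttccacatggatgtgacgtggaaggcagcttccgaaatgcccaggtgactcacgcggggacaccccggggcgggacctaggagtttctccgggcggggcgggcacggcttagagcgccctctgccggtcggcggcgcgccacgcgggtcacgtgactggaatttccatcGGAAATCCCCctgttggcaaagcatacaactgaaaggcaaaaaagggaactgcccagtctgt
Nfkbie: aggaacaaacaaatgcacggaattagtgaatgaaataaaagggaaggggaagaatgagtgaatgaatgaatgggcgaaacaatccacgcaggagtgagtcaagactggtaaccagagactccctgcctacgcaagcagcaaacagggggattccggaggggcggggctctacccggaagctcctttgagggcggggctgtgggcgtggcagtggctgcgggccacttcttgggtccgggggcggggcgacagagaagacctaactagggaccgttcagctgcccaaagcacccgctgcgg
The motif was found in 4 of the 8 windows available for the genes that fell (Nfkbia, Nfkbid, Rel and Tnfaip3), against 3.73% of the windows of 27025 genes. These genes came from a list of NF-kB genes, and list members that did not fall were not counted. The share therefore describes the listed genes and adds no test of the fall. The letters searched are not in the Nfkbie window, although that gene fell by 2.18 on the log2 scale. Only the spellings given above were searched, so a kappaB site in another spelling would not have been marked. No window of an NF-kB gene that fell held the interferon motif described further on.

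The fall was spread over cells rather than held by a few. The 9 genes took 1.78%, 1.85% and 1.49% of all neutrophil UMIs in Con and 0.593%, 0.519% and 0.577% in T2D. These genes are the ones that had passed the test, so their sum describes the spread among cells and adds no test. The median cell gave 1.83%, 2.05% and 1.47% in Con and 0.540%, 0.425% and 0.449% in T2D. The highest 10% of T2D cells began at 1.59%, 1.31% and 1.502%, which is near or below the median Con cell. The lowest 10% of Con cells ended at 0.426%, 0.510% and 0.157%, so cells with little of these transcripts occurred in Con too.

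**Figure D2:**
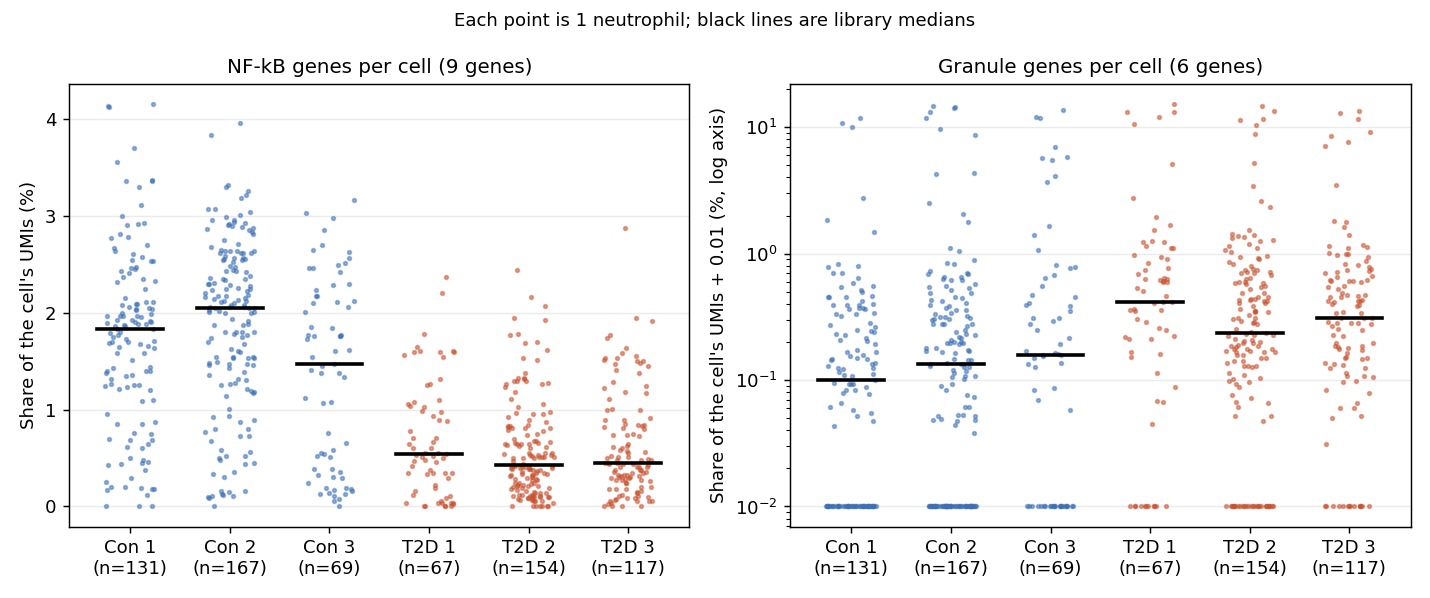
Share of each neutrophil's UMIs in the 9 NF-kB genes that fell (left, linear axis) and in 6 granule genes (right, 0.01 added, log axis), with 1 point per cell, the number of cells under each library and a black line at the library median. On the left the medians are 1.47% to 2.05% in Con and 0.425% to 0.540% in T2D, and on the right a few cells in each library stand far above the rest.

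Shares of cells with a UMI were compared after each cell had been thinned to 800 UMIs, which left out 52 Con and 34 T2D cells with fewer. Tnfaip3 was then seen in 57.9% to 70.1% of Con and 21.2% to 24.5% of T2D neutrophils (69.6% to 81.4% and 32.8% to 41.9% without thinning). In B cells thinned in the same way it was seen in 11.3% to 15.3% and 13.2% to 18.1%, with overlapping ranges. Nfkbia was seen in 90.7% to 95.9% of Con and 66.9% to 78.7% of T2D neutrophils, and in B cells it was lower in T2D as well (38.7% to 50.7% in Con and 29.2% to 42.9% in T2D, with overlapping ranges). Gadd45b went from 24.1% to 40.8% of cells in Con to 6.73% to 16.4% in T2D, with 0.867% to 2.27% of B cells as the level in another cell type. Nfkbie was seen in 10.5% to 19.0% of Con and 0% to 4.92% of T2D neutrophils, on average in 14.8% and 2.28%. T2D B cells had 4.27% to 6.27%, a range that T2D 1 neutrophils (4.92%, 3 cells) reached and the T2D mean did not.

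Immediate early genes, which cells transcribe within minutes of a stimulus, moved unevenly. Of 38 tested, 8 fell and 1 rose, against 2.13% lower and 1.67% higher over all genes. Gadd45b, a stress-induced regulator of MAP kinase signalling, had the steepest fall of any gene in the lists, at 853, 740.1 and 463 CPM in the Con libraries and 168, 70.1 and 82.2 CPM in the T2D libraries (−2.84 ± 0.28, adjusted p = 6.24e-06, edgeR). Each T2D value lay well under the lowest Con value. Ppp1r15a, the phosphatase subunit that ends the integrated stress response, fell by 1.31 on the log2 scale and Cdkn1a, the cell cycle inhibitor p21, by 1.67. Ier3 fell by 0.99 and Klf10 by 0.90, and all of these passed in the 6 fits without 1 library. Dusp2, Csrnp1, Maff and the riser Plk2 passed with all libraries and lost the call without at least 1 (highest adjusted p 0.0683 to 0.173). Dusp2 was lost without Con 2, T2D 1, T2D 2 or T2D 3, Csrnp1 and Maff each without a pair of libraries (Con 2 or T2D 1, and Con 1 or T2D 3), and Plk2 without each library except Con 3.

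Other well-known genes of the same list did not pass. Fos, a subunit of the transcription factor AP-1, stood at 2998, 2513 and 1544 CPM in the Con libraries and 2734, 3493 and 2948 CPM in the T2D libraries, with overlapping groups (adjusted p = 0.383, edgeR). Atf3 overlapped too (adjusted p = 0.935), as did Jun (0.754) and Egr1 (0.726), whose Con values ran from 751 to 2778 CPM. Junb had a log2 fold change of −0.54 ± 0.18 that did not pass (adjusted p = 0.0878, edgeR).

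Interferon-stimulated genes moved the other way. Of 36 tested among the 64 in the matrices, 15 rose and none fell, against 1.67% higher over all genes, and all 36 log2 fold changes were above 0 (median 0.91). Rsad2, the antiviral enzyme viperin, stood at 140.2, 159 and 119 CPM in the Con libraries and 427, 472 and 411 CPM in the T2D libraries. The 3 T2D values lay close together and far above the highest Con value (1.61 ± 0.20, adjusted p = 8.11e-07, edgeR). Oasl2, a relative of the 2′-5′ oligoadenylate synthetases, stood at 428, 416 and 344 CPM in the Con libraries and 1182, 817 and 844 CPM in the T2D libraries (1.23 ± 0.18, adjusted p = 7.76e-06). Slfn4, a myeloid Schlafen gene in mice, stood at 1725, 1808 and 1852 CPM in the Con libraries and 3342, 4203 and 2731 CPM in the T2D libraries (0.93 ± 0.16, adjusted p = 0.000183). Con values of Slfn4 were nearly equal, and T2D 3 was the lowest of the T2D libraries for it.

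**Figure D3:**
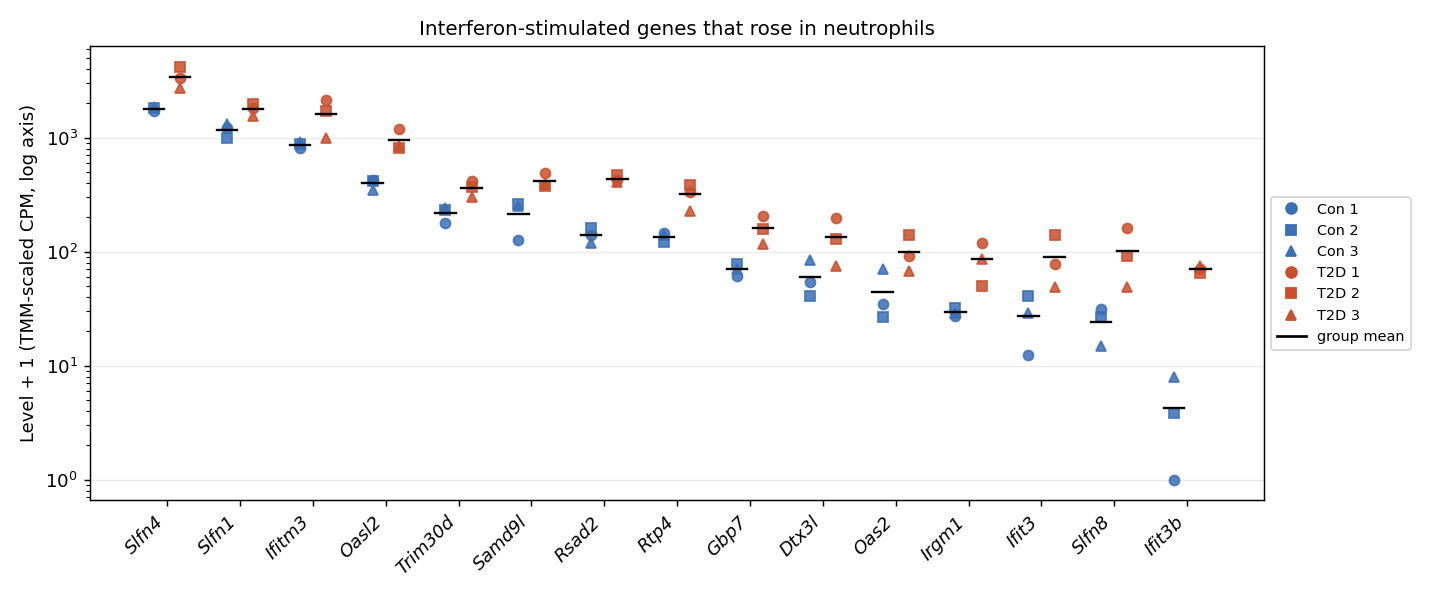
Levels of the 15 interferon-stimulated genes that rose, in neutrophil UMIs summed per library (TMM-scaled CPM plus 1, log axis), with 1 point per library and a black line at each group mean. T2D points lie above the Con points except for Oas2 and Dtx3l, where T2D 3 falls under Con 3, and T2D 3 is the lowest T2D library for most of the genes.

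Ifit3b, an interferon-induced protein with tetratricopeptide repeats, had 2 UMIs over the Con libraries and 51 over the T2D libraries, with levels of 0, 2.85 and 7.02 CPM in the Con libraries and 69.9, 64.0 and 74.7 CPM in the T2D libraries. The ratio of UMIs was 26.1, with an exact 95% counting interval of 6.86 to 221 (adjusted p = 1.82e-05, edgeR). Its neighbour Ifit3 is a close copy: of the overlapping 31-base words in the last 500 bases of the Ifit3b transcript 4.47% occur in Ifit3, and 24.04% the other way round, so some UMIs of either gene may have been assigned to the other. Ifit3 itself stood at 11.4, 39.9 and 28.1 CPM in the Con libraries and 76.9, 140.2 and 48.6 CPM in the T2D libraries (1.73 ± 0.45, adjusted p = 0.0207). Rtp4, an interferon-induced chaperone of membrane receptors, stood at 144, 119.6 and 140.3 CPM in the Con libraries and 336, 387 and 228 CPM in the T2D libraries, with no overlap (1.25 ± 0.23, adjusted p = 0.000363). Ifitm3, a membrane protein that blocks viral entry, stood at 815, 874 and 919 CPM in the Con libraries and 2139.7, 1728 and 986 CPM in the T2D libraries, and T2D 3 was hardly above Con 3.

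Rsad2, Oasl2, Slfn4, Rtp4 and Ifit3b passed without any one library. The other 10 (Ifit3, Oas2, Dtx3l, Trim30d, Slfn1, Slfn8, Samd9l, Ifitm3, Irgm1 and Gbp7) lost the call in at least 1 such fit, with highest adjusted p of 0.0748 to 0.429 by edgeR. T2D 1 was among the libraries each of these 10 needed. The list count fell to 6 of 38 tested genes without T2D 1 and to 7 of 40 without Con 1, and rose to 23 of 38 without T2D 3. By DESeq2 with all libraries it was 10 of 62. Genes of the list that did not pass included Isg15 (83.4, 122 and 49.1 CPM in Con and 189, 201 and 112 CPM in T2D, adjusted p = 0.1) and Irf7 (53.1, 71.2 and 35.1 CPM in Con and 105, 140.2 and 82.2 CPM in T2D, 0.0982). Ifit1 lay apart between groups at a low level (22.7, 11.4 and 49.1 CPM in Con and 196, 241 and 56.0 CPM in T2D, adjusted p = 0.13).

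The windows of 3 of the genes that rose are shown for comparison, with capitals at matches to GAAANNGAAA, a form of the interferon-stimulated response element, on both strands. That of Ifit3 spans chr19:34583279-34583578 (plus strand), that of Ifit3b chr19:34607707-34608006 (plus strand) and that of Rsad2 chr12:26456403-26456702 (minus strand), all from RefSeq on GRCm38.p6.
Ifit3: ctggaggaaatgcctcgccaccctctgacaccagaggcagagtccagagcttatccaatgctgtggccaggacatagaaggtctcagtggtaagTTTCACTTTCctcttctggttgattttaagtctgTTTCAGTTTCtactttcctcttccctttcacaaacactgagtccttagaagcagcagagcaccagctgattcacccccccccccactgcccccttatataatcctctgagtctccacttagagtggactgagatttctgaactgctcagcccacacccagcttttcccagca
Ifit3b: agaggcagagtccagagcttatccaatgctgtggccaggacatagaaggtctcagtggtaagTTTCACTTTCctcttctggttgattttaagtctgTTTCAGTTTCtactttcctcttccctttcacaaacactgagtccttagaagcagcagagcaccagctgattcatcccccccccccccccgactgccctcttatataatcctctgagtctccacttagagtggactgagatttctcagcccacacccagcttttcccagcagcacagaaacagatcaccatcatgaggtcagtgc
Rsad2: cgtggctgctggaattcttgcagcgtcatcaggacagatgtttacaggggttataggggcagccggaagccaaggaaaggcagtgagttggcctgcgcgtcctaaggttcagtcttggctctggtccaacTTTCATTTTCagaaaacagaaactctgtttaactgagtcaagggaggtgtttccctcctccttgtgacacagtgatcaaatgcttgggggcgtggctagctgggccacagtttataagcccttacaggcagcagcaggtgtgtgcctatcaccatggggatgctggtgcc
Ifit3 and Ifit3b hold the same pair of matches, at positions 95 and 129 and at positions 63 and 97 of their windows. The motif was found in 8 of 13 windows available for the genes that rose (Gbp7, Ifit3, Ifit3b, Ifitm3, Irgm1, Rsad2, Slfn8 and Trim30d), against 3.99% of the windows of 27025 genes, and the kappaB motif in none of the 13. These genes came from a list of interferon-stimulated genes, and list members that did not rise were not counted. The share therefore adds no test of the rise.

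Within libraries the interferon UMIs were unevenly spread over cells. A set of 8 genes (Ifit1, Ifit3, Ifit3b, Isg15, Rsad2, Irf7, Oasl2 and Rtp4, chosen after the data had been seen) took 0.0809% ± 0.0060 (SD, n = 3) of neutrophil UMIs in Con and 0.211% ± 0.028 in T2D. The top 10% of cells held 39.3% to 59.6% of these UMIs in every library. That share was taken without thinning, from cells of 501 to 9598 UMIs each. How far depth and low counts add to it was not tested. At 800 UMIs per cell, the set was seen in 34.2%, 40.8% and 35.2% of Con cells and 65.6%, 60.4% and 47.1% of T2D cells. The groups did not overlap, but 5 of the 8 genes had already passed between the same libraries, so this describes the spread over cells and adds no test. The whole list was seen in nearly every cell, 94.1% ± 2.2 in Con and 98.6% ± 1.4 in T2D (exact permutation p = 0.1), so that share has little room to differ.

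Receptors changed singly rather than as a class. Of 11 chemoattractant receptors tested, 2 fell and 2 rose, against 2.13% lower and 1.67% higher over all genes. Ptafr, the receptor of platelet-activating factor, stood at 751, 1016 and 737 CPM in the Con libraries and 343, 341 and 224 CPM in the T2D libraries (−1.48 ± 0.19, adjusted p = 8.52e-07, edgeR), and Ccrl2, an atypical receptor that presents chemerin, at 1849.8, 1919 and 1074 CPM in the Con libraries and 636, 732 and 650.1 CPM in the T2D libraries (−1.27 ± 0.18, adjusted p = 1.57e-05). Both were lower in 3 of 3 T2D libraries than in any Con library. Fpr2, a formyl peptide receptor that senses bacterial and mitochondrial peptides, stood at 478, 834 and 533 CPM in the Con libraries and 1398, 1021 and 859 CPM in the T2D libraries (0.80 ± 0.21, adjusted p = 0.0351), and its relative Fpr1 was nearly level (356, 444 and 498 CPM in Con and 385, 396 and 433 CPM in T2D, adjusted p = 0.889). Cxcr1, a chemokine receptor, had 10 UMIs over the Con libraries and 42 over the T2D libraries, a ratio of 4.30 with a counting interval of 2.12 to 9.61 (adjusted p = 0.0178, edgeR). Fpr2 and Cxcr1 lost their calls without single libraries, Fpr2 without Con 1, Con 3, T2D 1 or T2D 2 (highest adjusted p = 0.157) and Cxcr1 without Con 1, Con 3, T2D 1, T2D 2 or T2D 3 (0.19).

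Of 15 pattern recognition receptors, Tlr2, which senses bacterial lipoproteins, fell alone, against 2.13% lower over all genes. It stood at 588, 635 and 421 CPM in the Con libraries and 322, 274 and 250.3 CPM in the T2D libraries, with no overlap (−0.998 ± 0.19, adjusted p = 0.000417, edgeR). Nlrp3, the inflammasome sensor, was lower in all T2D libraries but varied widely in Con (1929, 3279 and 1186 CPM in Con and 699, 792 and 874 CPM in T2D), and passed by DESeq2 (adjusted p = 0.0433) but not by edgeR (0.164). No Fc gamma receptor (4 tested) and no NADPH oxidase subunit (7 tested) passed, and the median log2 fold changes of these lists were 0.30 and 0.24 (by edgeR, with 0 genes at an unadjusted p under 0.05, and with 0 calls by DESeq2). Cybb, the catalytic subunit of the oxidase, was highest in T2D 1 and lowest in Con 1 (462, 934 and 828 CPM in Con and 1573, 689 and 654 CPM in T2D).

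Of 15 genes of adhesion and migration, 3 fell, against 2.13% lower over all genes. Itga4, the alpha-4 integrin chain that binds VCAM-1, stood at 656, 660.4 and 547 CPM in the Con libraries and 315, 378 and 351 CPM in the T2D libraries (−0.83 ± 0.17, adjusted p = 0.00164, edgeR). Itgax, the integrin chain CD11c, stood at 140.2, 148 and 154 CPM in the Con libraries and 48.9, 70.1 and 74.7 CPM in the T2D libraries (−1.13 ± 0.28, adjusted p = 0.0117) and was lost without Con 2 or T2D 1 (highest adjusted p = 0.0581). By DESeq2 Itgax did not pass (adjusted p = 0.154). Icam1, a ligand of beta-2 integrins, stood at 53.1, 76.9 and 63.1 CPM in the Con libraries and 35.0, 9.14 and 14.9 CPM in the T2D libraries (adjusted p = 0.0127) and was lost without Con 2 or T2D 2 (0.224). The beta-2 integrin genes Itgam and Itgb2 and the hyaluronan receptor Cd44 overlapped between groups (adjusted p = 0.835, 0.963 and 0.889).

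Of 17 genes of cytokines, chemokines and prostaglandin synthesis, 2 fell, against 2.13% lower over all genes. Il1rn, the antagonist of interleukin-1, stood at 569, 717 and 596 CPM in the Con libraries and 182, 384 and 333 CPM in the T2D libraries (−1.02 ± 0.20, adjusted p = 0.00105, edgeR), with T2D 1 the lowest. Ptgs2, which encodes cyclooxygenase-2, was lower on average (1721, 1873 and 940.2 CPM in Con and 706, 1003 and 856 CPM in T2D, −0.83 ± 0.21, adjusted p = 0.0381), but T2D 2 lay above Con 3, and the call was lost without Con 1, Con 2, T2D 1 or T2D 3 (0.164). The cytokine genes Il1b and Cxcl2 did not pass. Il1b stood at 20165, 18124 and 11577 CPM in the Con libraries and 12390.5, 15139.8 and 14485 CPM in the T2D libraries, where Con 3 was the lowest of all (adjusted p = 0.603), and Cxcl2 gave 0.231. Tnf was lower in every T2D library (542, 655 and 337 CPM in Con and 301, 73.2 and 138 CPM in T2D) without passing (adjusted p = 0.248, edgeR).

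Alarmins and secreted inhibitors leaned higher, with 11 of 12 log2 fold changes above 0 and 2 calls, against 1.67% higher over all genes. Wfdc17, a small secreted protein with a whey acidic protein domain, stood at 603, 532 and 716 CPM in the Con libraries and 1294, 1939 and 1382 CPM in the T2D libraries, without overlap (1.34 ± 0.17, adjusted p = 1.45e-06, edgeR). Lgals3, galectin-3, stood at 432, 407 and 568 CPM in the Con libraries and 937, 582 and 658 CPM in the T2D libraries (adjusted p = 0.0458) and was lost without Con 1, Con 2, T2D 1 or T2D 3 (0.303). By DESeq2 Lgals3 did not pass (adjusted p = 0.131). S100a8 and S100a9, the chains of calprotectin, did not pass (adjusted p = 0.147 and 0.13), although together they took 4.33%, 5.01% and 5.20% of neutrophil UMIs in Con and 8.03%, 6.38% and 5.61% in T2D. The T2D range lay above the Con range, with T2D 1 the highest.

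Granule genes of late precursors showed wide spread between libraries. All 8 tested had a log2 fold change above 0 (median 0.69), and none passed by edgeR (1 at an unadjusted p under 0.05). Without Con 1 or without T2D 1 the median was 0.32 or 0.31. Mpo, Elane and Ctsg, which earlier precursors express, had 0 of 1612473 neutrophil UMIs, which allows a level of up to 1.86 CPM (3 counts of the total, counting error only). Ngp, neutrophilic granule protein, stood at 2930.0, 8232 and 6988 CPM in the Con libraries and 15530.1, 8074 and 6762 CPM in the T2D libraries, and Ltf, lactoferrin, at 644, 2488 and 2799.6 CPM in the Con libraries and 4419, 2481 and 2574 CPM in the T2D libraries. Con 1 was the lowest and T2D 1 the highest library for both, and the other 4 overlapped (adjusted p = 0.677 and 0.754, edgeR). The sum of Camp, Ltf, Ngp, Lcn2, Mmp8 and Chil3 was carried by few cells: 3, 7 and 7 neutrophils in Con and 6, 7 and 7 in T2D gave it over 5% of their UMIs. The median cell gave it 0.0900%, 0.123% and 0.147% in Con and 0.401%, 0.224% and 0.301% in T2D, so the medians did not overlap between groups. Of the single genes, Mmp8, a granule collagenase, lay apart at 1137, 1731 and 2358 CPM in Con and 4056, 2847 and 2395 CPM in T2D, without passing by edgeR (adjusted p = 0.163) and passing by DESeq2 (0.0137). At 800 UMIs per cell, Ngp was seen in 5.26% to 18.5% of Con and 11.5% to 14.8% of T2D neutrophils, against 0.2% to 0.733% of B cells.

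Among 13 tested genes of fatty acid use and targets of PPAR receptors, 3 rose and none fell, against 1.67% higher over all genes. Acot1, a thioesterase that frees fatty acids from coenzyme A, stood at 30.3, 34.2 and 35.1 CPM in the Con libraries and 105, 192 and 288 CPM in the T2D libraries. Con values were nearly equal, and T2D values were spread and all far above them (2.61 ± 0.34, adjusted p = 1.78e-06, edgeR). Plin2, which coats lipid droplets, stood at 60.6, 71.2 and 112 CPM in the Con libraries and 168, 262 and 250.3 CPM in the T2D libraries (1.60 ± 0.27, adjusted p = 7.5e-05). Slc25a20, the carnitine carrier of mitochondria, stood at 45.5, 56.9 and 42.1 CPM in the Con libraries and 139.8, 94.5 and 105 CPM in the T2D libraries (adjusted p = 0.0388) and was lost without any one of the 6 libraries (0.143). Cpt1a, the enzyme before that carrier, was higher in each T2D library without passing (102, 91.1 and 126 CPM in Con and 168, 140.2 and 191 CPM in T2D, adjusted p = 0.165). At 800 UMIs per cell, Acot1 was seen on average in 0.844% of Con and 15.1% of T2D neutrophils, and in at most 0.133% of the B cells of any library. Of the 500 last bases of its transcript no 31-base word occurs in its neighbour Acot2.

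Glycolysis genes gave 1 call among 18, against 1.67% higher over all genes. It was Pkm, which encodes pyruvate kinase (970.4, 919 and 940.2 CPM in Con and 1580.3, 1359 and 1300.2 CPM in T2D, 0.58 ± 0.16, adjusted p = 0.0249, edgeR), lost without Con 1, Con 2, T2D 1 or T2D 2 (0.147). Of 15 genes of oxidative stress defence, 3 fell, against 2.13% lower over all genes. Slc7a11, the cystine importer, stood at 504, 521 and 259.6 CPM in the Con libraries and 161, 201 and 235 CPM in the T2D libraries (−1.12 ± 0.22, adjusted p = 0.00155). Txnrd1, a thioredoxin reductase, and Sod2, the mitochondrial superoxide dismutase, fell by 1.15 and 1.16 on the log2 scale and were lost without single libraries (Txnrd1 without Con 2, T2D 1 or T2D 2, Sod2 without Con 2, Con 3, T2D 2 or T2D 3, highest adjusted p 0.147 and 0.230). Single genes of other lists fell: Per1, a circadian clock gene that glucocorticoids induce (−0.85 ± 0.17, adjusted p = 0.00105, edgeR), Plaur, the urokinase receptor (−0.72 ± 0.16), Pim1, a survival kinase (−0.57 ± 0.17), Il10ra, a chain of the interleukin-10 receptor (−0.93 ± 0.28), and the transcription factors Nfe2l2 (−0.62 ± 0.17) and Bhlhe40 (−1.06 ± 0.28). These falls were 1 of 7 tested glucocorticoid-induced genes, 1 of 5 of coagulation and fibrinolysis and 1 of 18 of survival and cell death. They were 1 of 22 of cytokine receptors and 2 of 16 myeloid transcription factors, against 2.13% lower over all genes. Cebpd, a transcription factor of the granulocyte lineage, rose (0.64 ± 0.17), as 1 of the same 16, against 1.67% higher over all genes. Of these 7, the calls of Plaur (without Con 2 or T2D 2), Pim1 (without all but Con 3), Il10ra (without any one of the 6 libraries), Nfe2l2 (without all but Con 3), Bhlhe40 (without Con 1, T2D 2 or T2D 3) and Cebpd (without all but T2D 1) were lost in some fits, with highest adjusted p from 0.0668 to 0.223. Per1 passed in all 6. By DESeq2 Nfe2l2, Bhlhe40, Cebpd and Il10ra did not pass. No gene of leukotriene synthesis (4 tested) or of heat shock and chaperones (12 tested) passed by edgeR or DESeq2 (0 and 4 at an unadjusted p under 0.05 by edgeR), and Alox5 and Alox5ap overlapped between groups.

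Outside the lists, the genes with the largest falls included immune regulators. Cd274, the checkpoint ligand PD-L1, stood at 186, 305 and 225 CPM in the Con libraries and 133, 64.0 and 41.1 CPM in the T2D libraries (−1.76 ± 0.30, adjusted p = 0.000393, edgeR). Tagap, a GTPase-activating protein of leukocytes, stood at 136, 145 and 147 CPM in the Con libraries and 28.0, 18.3 and 48.6 CPM in the T2D libraries (−2.17 ± 0.34, adjusted p = 3.33e-05). Irak2, a kinase downstream of interleukin-1 and Toll-like receptors, stood at 193, 162 and 196 CPM in the Con libraries and 55.9, 67.1 and 48.6 CPM in the T2D libraries (−1.64 ± 0.28, adjusted p = 9.89e-05). All of these passed in each fit without 1 library. That they lay apart between groups was a condition for naming them. Cd69, an early activation marker of leukocytes, fell by 1.63 on the log2 scale. Pde3b, a phosphodiesterase of cyclic nucleotides, and Hdgf, a chromatin-binding growth factor, fell by 1.68 and 1.55 and were lost without single libraries (Pde3b without T2D 3, Hdgf without Con 1 or T2D 2, highest adjusted p = 0.0553 and 0.0646).

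Several of the largest rises were in genes that platelets also express. Itga6, an integrin chain that binds laminin, stood at 83.4, 91.1 and 133 CPM in the Con libraries and 329, 287 and 235 CPM in the T2D libraries (1.51 ± 0.24, adjusted p = 3.86e-05, edgeR). Tsc22d1, a transcription factor gene, stood at 239, 262 and 337 CPM in the Con libraries and 769, 695 and 829 CPM in the T2D libraries (1.48 ± 0.18, adjusted p = 5.54e-07). Cd226, an adhesion receptor, Tubb2a, a beta-tubulin, and Clec1b, the podoplanin receptor CLEC-2, rose by a log2 fold change of 1.77, 2.78 and 1.35, and Clec1b was lost without Con 2 (adjusted p = 0.142). Neutrophils with a UMI of the platelet genes Pf4 or Ppbp made up 41.2%, 37.1% and 42.0% in Con and 55.2%, 52.6% and 29.9% in T2D, a share that did not differ beyond its spread (exact permutation p = 0.5). With those cells left out, 60 of 2354 genes passed, 15 higher and 45 lower. Of the 58 genes that had risen, 40 could still be tested and 14 passed, and of the 74 that had fallen, 67 could be tested and 41 passed. The sign was the same for 105 of these 107. Tsc22d1 went to a log2 fold change of 0.56 (adjusted p = 0.659) and Itga6 to 0.50 (0.792). Cd226, Tubb2a and Clec1b had too few counts to be tested.

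**Figure D4:**
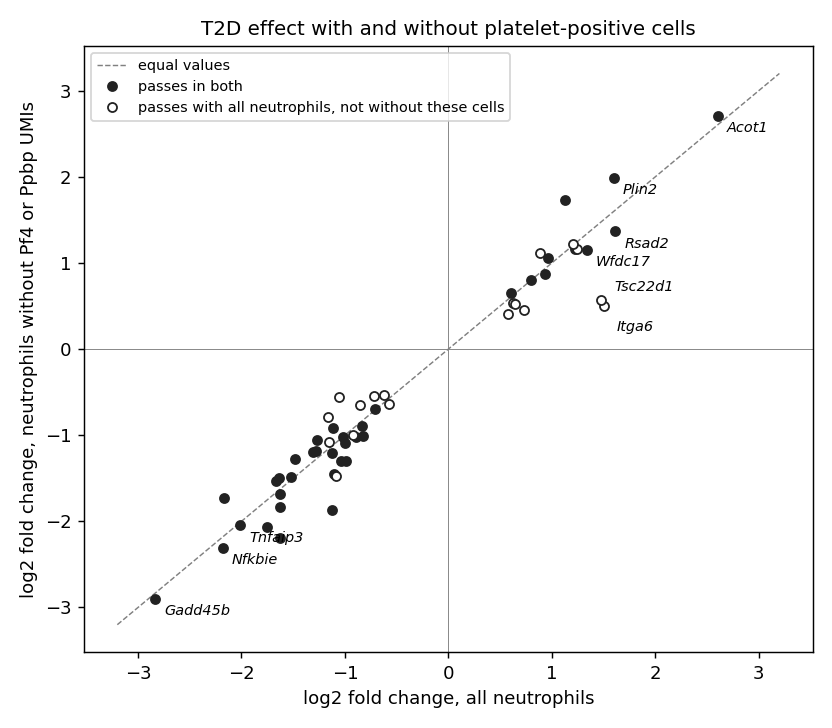
Log2 fold change of T2D against Con over all neutrophils (horizontal) and over neutrophils without Pf4 or Ppbp UMIs (vertical), for the 55 genes named by rule that passed with all cells and could be tested in both. The 37 filled points pass in both fits, the 18 open points pass with all cells, and Tsc22d1 and Itga6 lie well below the dashed line of equal values.

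The named groups behaved as follows without these cells. NF-kB genes fell in 8 of 15 tested, with Nfkbia at −1.68 (adjusted p = 2.36e-06, edgeR) and Tnfaip3 at −2.05 (9.43e-08). Interferon genes rose in 5 of 21 tested, among them Rsad2 at 1.37 (0.0188), Oasl2 at 1.16 (0.0156) and Slfn4 at 0.87 (0.00634), and the median of the list was 0.78. Acot1 stood at 2.71 (7.86e-05), Plin2 at 1.99 (0.000721) and Wfdc17 at 1.15 (0.000245).

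To see whether these changes were shared, the T2D effect was compared with that in classical monocytes of the same libraries and with that in all cells that were not neutrophils. The latter include cells that reached a marker sum of 3 but failed another part of the rule. Of 2052 cells with that sum, 705 were taken as neutrophils, and how far the others bear on this comparison was not tested. The 626 monocytes (84 to 166 per library) held Csf1r, at least 2 UMIs of Ccr2, F13a1 and Fn1 together and at most 1 UMI of the neutrophil markers. In monocytes 16 of 6427 genes passed (0.249%), and among all other cells 649 of 13723 (4.73%), in far deeper sums. The difference of the effect, tested as an interaction in edgeR with the library as a term, passed for 25 of 6054 genes against monocytes (0.413%) and for 45 of 12683 against all other cells (0.355%).

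**Figure D5:**
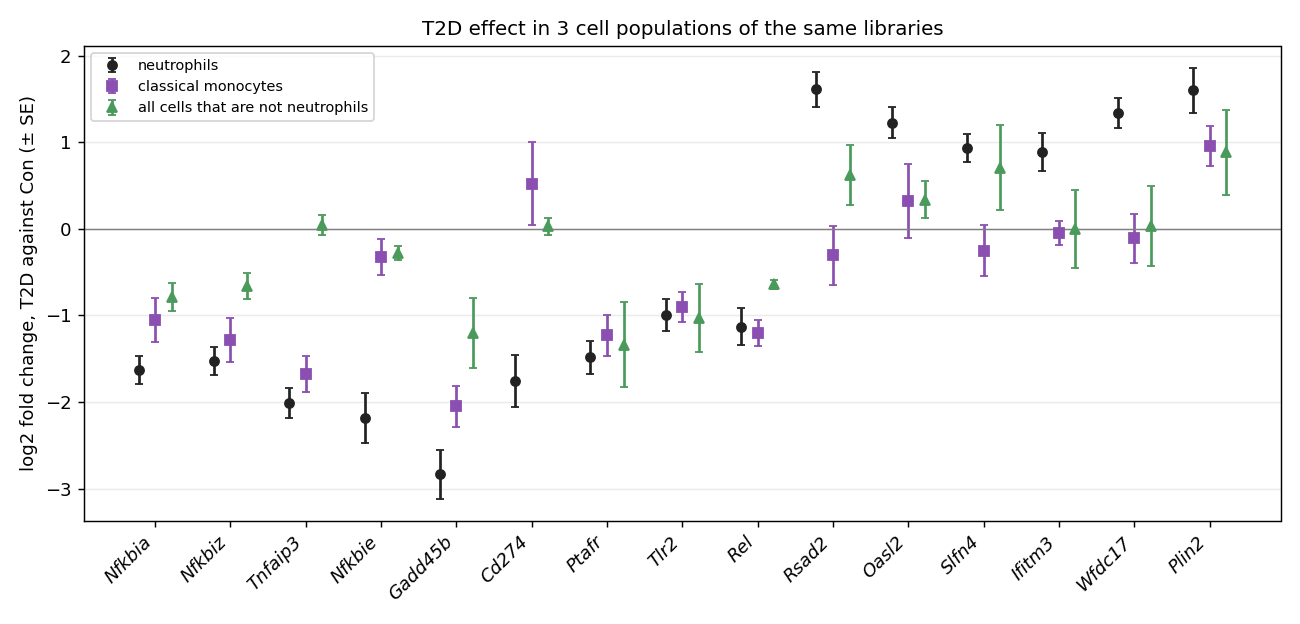
Log2 fold change of T2D against Con with its standard error (from the edgeR fit) for 15 genes in neutrophils, classical monocytes and all cells that are not neutrophils. Gadd45b, Tnfaip3, Rel, Ptafr and Tlr2 are negative in neutrophils and monocytes alike, while Rsad2, Ifitm3 and Wfdc17 are above 0 in neutrophils and at or below 0 in monocytes.

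Part of the NF-kB fall was seen in monocytes too. There 2 of 20 tested genes of the list passed by edgeR, both lower, against 0.249% of all genes. At an unadjusted p under 0.05 there were 9, and the median log2 fold change of the list was −0.32. The difference of the effect passed for 1 gene of the list against monocytes, Nfkbie, and for 5 against all other cells. Tnfaip3 stood at 1116, 1525 and 1334 CPM in the Con libraries and 584, 354 and 327 CPM in the T2D libraries among monocytes (−1.67 ± 0.21, adjusted p = 0.00479, edgeR), and the difference from neutrophils did not pass (adjusted p = 0.83). Rel, Gadd45b, Ptafr and Tlr2 also passed in monocytes, with log2 fold changes of −1.20 ± 0.15, −2.05 ± 0.24, −1.23 ± 0.24 and −0.90 ± 0.17. Against all other cells the effect on Tnfaip3 was lower in neutrophils, with a log2 difference of −2.02 ± 0.19 (adjusted p = 1.78e-21), and so were those on Nfkbia (−0.83 ± 0.16, 0.000239), Nfkbiz (−0.85 ± 0.18, 0.0011) and Zc3h12a (−1.21 ± 0.25, 0.000859). Nfkbie differed from both. It stood at 135, 160.3 and 106 CPM in the Con libraries and 134, 109.7 and 81.9 CPM in the T2D libraries among monocytes, with overlapping groups and a lower T2D mean (−0.32 ± 0.21), and the difference of the effect was −1.80 ± 0.35 against monocytes (adjusted p = 0.00344) and −1.87 ± 0.34 against all other cells (5.12e-05). With platelet-positive cells left out of every population, Nfkbie passed against all other cells (−2.05 ± 0.47, adjusted p = 0.0108) but not against monocytes (−1.91 ± 0.49, 0.177), and Tnfaip3, Nfkbia, Nfkbiz and Zc3h12a still passed against all other cells (adjusted p = 1.11e-13, 0.00299, 0.00299 and 0.00959).

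In monocytes 0 of 55 tested genes of the interferon list passed by edgeR (2 at an unadjusted p under 0.05), and their median log2 fold change was 0.07. Only 0.249% of all genes passed in monocytes, so a count of 0 says little about the list. Rsad2 stood at 51.6, 49.6 and 62.0 CPM in the Con libraries and 41.1, 65.0 and 17.8 CPM in the T2D libraries among monocytes, with wide spread (−0.31 ± 0.34). The effect in neutrophils exceeded it by 2.02 ± 0.36 (adjusted p = 0.00152, edgeR) and exceeded that in all other cells by 1.11 ± 0.27 (0.0173). Ifitm3, which stood at 3554, 3671 and 3328 CPM in Con and 3923, 3734 and 2536 CPM in T2D among monocytes, differed by 0.93 ± 0.19 (0.00425), and Slfn4 by 1.25 ± 0.26 (0.00732), though not from all other cells (adjusted p = 0.928). In all, the difference passed for 6 genes of the list against monocytes and 10 against all other cells. With platelet-positive cells left out of every population, it passed for 1 of 41 tested against monocytes and 0 of 62 against all other cells by edgeR (10 and 11 at an unadjusted p under 0.05). Over all genes 5 of 4013 and 14 of 12283 passed in these fits (230 and 497 at an unadjusted p under 0.05). So few genes passed that the counts of 1 and 0 say little about the list. Ifitm3 was the gene that passed against monocytes (1.09 ± 0.23, adjusted p = 0.0461, edgeR), while Rsad2 (1.76 ± 0.70, 0.834) and Slfn4 (1.49 ± 0.38, 0.177) did not. Wfdc17 stood at 413, 574 and 442 CPM in the Con libraries and 551, 520.0 and 259.8 CPM in the T2D libraries among monocytes, and its effect in neutrophils was higher by 1.52 ± 0.26 (adjusted p = 0.00344). For Itgax the signs were opposite, with 60.9, 22.9 and 32.0 CPM in the Con libraries and 65.8, 91.6 and 107 CPM in the T2D libraries among monocytes (1.21 ± 0.29, adjusted p = 0.102) and a difference of −2.36 ± 0.42 (adjusted p = 0.00152). Wfdc17 and Itgax also passed against monocytes without platelet-positive cells (1.51 ± 0.31 and −2.59 ± 0.52, both with adjusted p = 0.0428).

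For Acot1, Plin2, Cd274 and Gadd45b the difference from monocytes did not pass (adjusted p = 0.669, 0.561, 0.33 and 0.489, edgeR). Plin2 had a log2 fold change of 0.96 ± 0.23 in monocytes that did not pass (0.169), and Acot1 had too few counts there for a test within monocytes. The effect on Cd274 was lower in neutrophils than in all other cells (difference −1.78 ± 0.31, adjusted p = 1.95e-05), as were those on Itga4 (−0.90 ± 0.20, 0.00435) and Tagap (−2.55 ± 0.37, 3.41e-08). Without platelet-positive cells Cd274 and Tagap still passed (adjusted p = 0.00198 and 0.00959) and Itga4 did not (0.0848).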

How the data were processed

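Each library is a matrix of raw UMI counts (genes by cell barcodes) as the authors deposited it, with 23574052 to 32321855 UMIs and 31253 genes. The libraries are BD Rhapsody 3′ whole-transcriptome libraries, per the labels' protocols. CASAVA 1.8, Seurat, UMI-tools and the mm10 build are named, without roles, in the submitters' processing notes. The aligner and annotation version are each not given in the sources used here. Strand handling of the counts is not stated, so overlapping and antisense genes cannot be told apart.

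Computed here were the cell filter and neutrophil rule, doublet scores (scanpy 1.11.5, scrublet scheme, threshold 0.2787), UMI sums per library, and edgeR 4.0.16 (R 4.3.3) with TMM scaling, filterByExpr and the robust quasi-likelihood test. The fits were tested on simulated data. No pair of libraries was a duplicate (chi-square of their neutrophil sums 2.43 per degree of freedom or more). Standard errors are from the fit. Exact permutation tests are two-sided over 3 against 3 libraries. Alternatives were relative log expression factors, no filter on low counts, DESeq2 1.42.0, a replicate block, marker sums of 2 or 5, doublets or platelet-positive cells left out, and each library left out. Leaving out cells with basophil UMIs and the 8-gene interferon set were added after seeing the data.

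The members and gene lists were chosen with earlier results of these data known. Genes named are list members and the 12 in each direction with the largest change among genes that passed, had a mean of at least 50 CPM and did not overlap between groups. Of 31253 identifiers, 31107 matched the reference names. Promoter windows are RefSeq sequences of GRCm38.p6, the build of mm10. Some genes of the lists are not reported here.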

Additional observations from a re-analysis of the deposited data

Results flagged for a closer look

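The T2D effect differed between neutrophils and classical monocytes for 25 genes, and between neutrophils and all other cells for 45 genes, by an interaction test in edgeR with adjusted p under 0.05. The following 8 named genes passed against both. The effect in neutrophils minus that in monocytes, on the log2 scale, was 2.67 for Tubb2a, 2.02 for Rsad2, 1.75 for Itga6, 1.52 for Wfdc17 and 0.93 for Ifitm3, all higher in neutrophils. It was −2.36 for Itgax, −1.80 for Nfkbie and −1.53 for Hdgf, all lower in neutrophils. With platelet-positive cells left out of every population, 5 genes differed from monocytes and 14 from all other cells, and of the 8 named genes Wfdc17 and Itgax passed against both. Ifitm3 then passed against monocytes alone (adjusted p = 0.0461) and Nfkbie against all other cells alone (0.0108). Rsad2, Itga6 and Hdgf passed against neither, and Tubb2a did not pass against all other cells and had too few counts for the test against monocytes.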

How the results depend on the processing

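The count of 132 genes that differed in neutrophils moved by over 1.5 times with DESeq2 (71, of which 64 were among the 132), with platelet-positive cells left out (60, of which 55 were) and with the replicate number as a block (83). Deviations from the group means correlated at −0.09, 0.02 and −0.03 between same-numbered libraries. Other pairs ran from −0.06 to 0.08. This gave no sign of pairing, but 3 libraries per group cannot exclude it, and the meaning of the numbers is not stated. Leaving out 1 library gave 83 to 149, and without T2D 3 the balance turned to 70 higher and 58 lower. The 25 genes that differed from monocytes (17 higher, 8 lower) became 5 without platelet-positive cells (2 higher, 3 lower) and 38 with no filter on low counts, and 17 to 31 without 1 library. The 45 that differed from all other cells (24 higher, 21 lower) became 14 without platelet-positive cells (1 higher, 13 lower), and 20 (without Con 1 or without Con 2) to 65 without 1 library. The causes were not tested. The share difference of −0.311 percentage points (block −0.311) ran from −0.695 to 0.0173 without 1 library. The difference in cells with interferon UMIs, 4.50 percentage points, fell to 1.49 with a marker sum of 5 (exact permutation p = 0.5) and was 3.77 to 5.77 without 1 library. Of 71 named genes, 27 passed in every alternative run, and none changed sign in a run that could test it. Without platelet-positive cells 55 of the 71 could be tested. At least 20 of the 71 did not pass by DESeq2. With 67 to 167 cells per library, 3476 genes had enough counts to be tested.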
